A study of Rattus with 18 samples.

Results

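The genes described here are the cyclins, cyclin-dependent kinases and kinase inhibitors that govern the passage of a cell from G1 into S phase, measured in glomeruli of rats with anti-Thy1 nephritis. They are 5 cyclins (Ccnd1, Ccnd2, Ccnd3, Ccne1 and Ccna2), 2 kinases (Cdk2 and Cdk4) and 3 inhibitors (Cdkn1a, Cdkn1b and Cdkn1c). The rule takes the 10 genes by name and uses no measured value, though they were picked with earlier results of these data known. They are 10 of the 23186 genes and transcripts tested. All 10 passed the filter on dim probes, which asked for a signal well above background on all 3 arrays of at least 1 day.

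Total RNA of glomeruli was hybridised, 1 sample to an array, to 18 single-colour Agilent rat expression arrays. The antibody groups are SD rats of 200 g killed 1, 2, 3, 4 or 5 days after an injection of anti-Thy1 antibody, and the control group is SD rats of the same weight that received saline and are labelled day 0. Each of the 6 groups has 3 arrays, and no genotype other than the strain is given. The labels give 30 rats with antibody and 6 with saline, and 3 glomeruli from each of 6 rats per time point, but not which rats lie behind which array. The p-values therefore measure only the spread between these arrays, which may be technical. In the rat kidney the antibody binds mesangial cells, which carry Thy1 on their surface, and the model is known for an early loss of mesangial cells followed by their proliferation. The samples are whole glomeruli, so fewer cells of a type and less RNA per cell cannot be told apart.

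D-type cyclins link growth signals to the cell cycle: they bind Cdk4 or Cdk6, and the active kinase phosphorylates the retinoblastoma protein, which releases E2F transcription factors. E2F activity then drives the genes of cyclin E and cyclin A, whose complexes with Cdk2 start and sustain DNA replication. The Cip/Kip inhibitors p21 (Cdkn1a), p27 (Cdkn1b) and p57 (Cdkn1c) bind and restrain these kinases, and in the kidney p27 and p57 are known from resting glomerular cells, p57 above all from podocytes.

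Each level below is the log2 of a probe's processed intensity minus the 75th percentile of its array on the same log2 scale, for the brightest probe of each gene. Levels of different probes carry different hybridisation strengths, so no gene's level is set against another's. The 10 genes had 20 probes of 60 bases on the array. The probes shown here are those whose mapped span on the rn4 build exceeds their own length, that is, probes that read across a splice junction and so a spliced transcript. Each is written 5′ to 3′ as the files give it, in lower case, with no base set apart. The Ccnd2 probe, the only one of that gene, is placed on the minus strand of rn4 at chr4:163535032-163541856, a span of 6825 bases. The Cdk4 probe, the brighter of a pair, is placed on the plus strand at chr7:67018124-67018271, a span of 148 bases. The Ccna2 probe is the dimmer of that gene's pair, placed on the minus strand at chr2:123065588-123065829, a span of 242 bases, and its values are set beside those of the brighter one below.
Ccnd2: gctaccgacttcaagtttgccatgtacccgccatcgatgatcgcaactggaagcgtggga
Cdk4: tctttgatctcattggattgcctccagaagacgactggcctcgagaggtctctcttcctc
Ccna2: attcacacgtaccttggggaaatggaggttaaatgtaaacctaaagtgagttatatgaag

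The control arrays were dimmer than every antibody array. The 75th percentile of processed intensity was 251.86 to 452.42 on the antibody arrays and 180.74 to 229.25 on the day 0 arrays, and 55.2% to 69.6% of probes were well above background, day 1 replicate 4 being the lowest. No spot was saturated. Arrays of one day correlated at 0.9519 to 0.9911. The file headers show 5 slides and 2 scan days: days 2 and 4 were scanned on the second day and all other groups on the first, so in any comparison of day 2 or day 4 with day 0 the scan day and the antibody cannot be told apart. Day 1 replicate 1 was the only antibody array on the slide of the 3 controls. All arrays of days 2 to 5 lay on other slides, so comparing them with day 0 cannot tell slide and antibody apart. Fits with slide as a fixed block are tied to the controls through day 1 replicate 1 alone. Markers of glomerular cell types were present throughout, and so were markers of tubules: Slc34a1 of the proximal tubule and Umod of the thick limb were well above background on all 18 arrays. The targeted cells were visible in Thy1 itself, whose level averaged -3.34 on day 1 against -0.09 on day 0, a change of -3.25 ± 0.59 (SE, n = 3 each, limma adjusted p = 0.0026), and it was well above background on 2 of the 3 day 1 arrays. Of 7 mesangial markers 4, 2, 1, 1 and 1 fell on days 1 to 5, and Cspg4 rose on days 3 and 5. Of 8 endothelial markers 4, 3, 3, 5 and 4 fell and Emcn rose on day 3, where 20.7%, 25.1%, 26%, 26.7% and 23.4% of all genes fell. Of 11 macrophage markers 8, 9, 10, 3 and 1 rose on days 1 to 5, and of 5 T cell markers 1, 3, 4, 0 and 0, where 19.2%, 20.8%, 21.7%, 25.6% and 20.9% of all genes rose. None of 7 proximal tubule markers passed on any day.

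A further difference between the antibody and control arrays bears on genes with several probes. Over 2814 genes with probes at least 500 bases apart, the probe nearer the 5′ end of the transcript read lower than the one nearer the 3′ end on every array. The median difference, upstream minus downstream, was -1.88 to -1.58 log2 units on the 15 antibody arrays and -1.46, -0.91 and -1.4 on the 3 control arrays, replicate 4 being the one that stands apart. The difference between the upstream and the downstream probe was lower in the antibody group in 69.2% to 74% of those genes, depending on the day. The part of this shift in the results below was not tested; each gene's probes are compared, with and without day 0 replicate 4 where they part.

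Against day 0 more of these genes rose than fell on each of the 5 days. On day 1 Ccnd1, Ccne1 and Cdk4 rose and Cdkn1b fell, 4 of the 10 genes, where 40% of all genes tested passed in either direction. On day 2 the count was 6 of 10, all higher (Ccnd1, Ccnd3, Ccne1, Ccna2, Cdk2 and Cdk4), beside 45.9% of all genes in either direction and 20.8% higher. Day 3 gave the same 6 genes, beside 47.7% in either direction and 21.7% higher. On day 4 only Ccnd3 and Cdk4 passed, 2 of 10 where 52.3% of all genes did. On day 5 Ccnd3, Cdk4 and Cdkn1c rose and Cdkn1b fell, 4 of 10 beside 44.3%. For a set of only 10 genes the count in either direction lies at or near the background on days 1, 2, 3 and 5, and below it on day 4. Upward, 3, 6, 6, 2 and 3 of the 10 genes rose on days 1 to 5, where 19.2%, 20.8%, 21.7%, 25.6% and 20.9% of all genes did. These calls come from limma with Benjamini-Hochberg adjustment over all 23186 genes at a threshold of 0.05, and the 5 comparisons share the same 3 control arrays. By the arrays alone, 7, 5, 5, 2 and 4 of the 10 genes did not overlap with the controls on days 1 to 5, where 51.3%, 57.8%, 56.2%, 58.8% and 52.6% of all genes did not. Over the 6 days together the moderated F-test passed for 7 of the 10 genes, all but Ccnd2, Cdkn1a and Cdkn1c, where 53.1% of all genes passed.

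The median change of the 10 genes was 0.51, 0.57, 0.62, 0.35 and 0.62 on days 1 to 5, against 0.06, 0.05, -0.02, 0.05 and 0.06 for all genes. The 12 reference genes, commonly used as constant in expression studies, had medians of 0.47, 0.52, 0.62, 0.66 and 0.52. Shifts of this size were thus also seen outside the cell cycle on this scale, and scaling to the reference genes moved the median of all genes to between -0.5 and -0.3. Under that scaling the rise held on both days 2 and 3 for Ccne1 and Ccna2, on day 3 alone for Cdk4 and on day 1 alone for Ccnd1. It was lost on every day for Ccnd3, with changes of 0.21 to 0.38 on days 2 to 5, and for Cdk2, with changes of 0.21 and 0.18 on days 2 and 3.

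**Figure D1:**
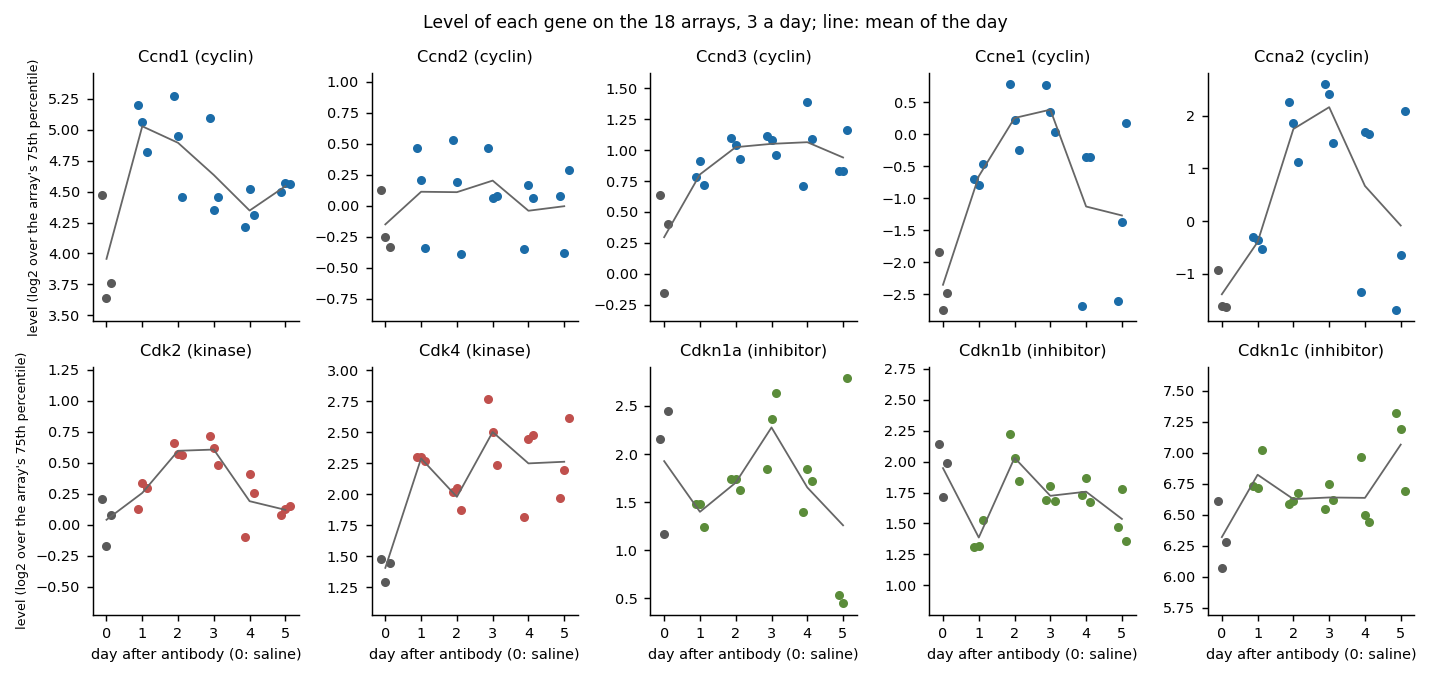
Level of each of the 10 genes (log2 over the array's 75th percentile, y axis, scaled for each panel) by day (x axis), 3 arrays a day as points and the day's mean as a line. Ccne1 and Ccna2 stand highest on days 2 and 3 and spread widely on days 4 and 5, while all 15 antibody arrays of Cdk4 and Ccnd3 lie above the 3 controls.

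**Figure D2:**
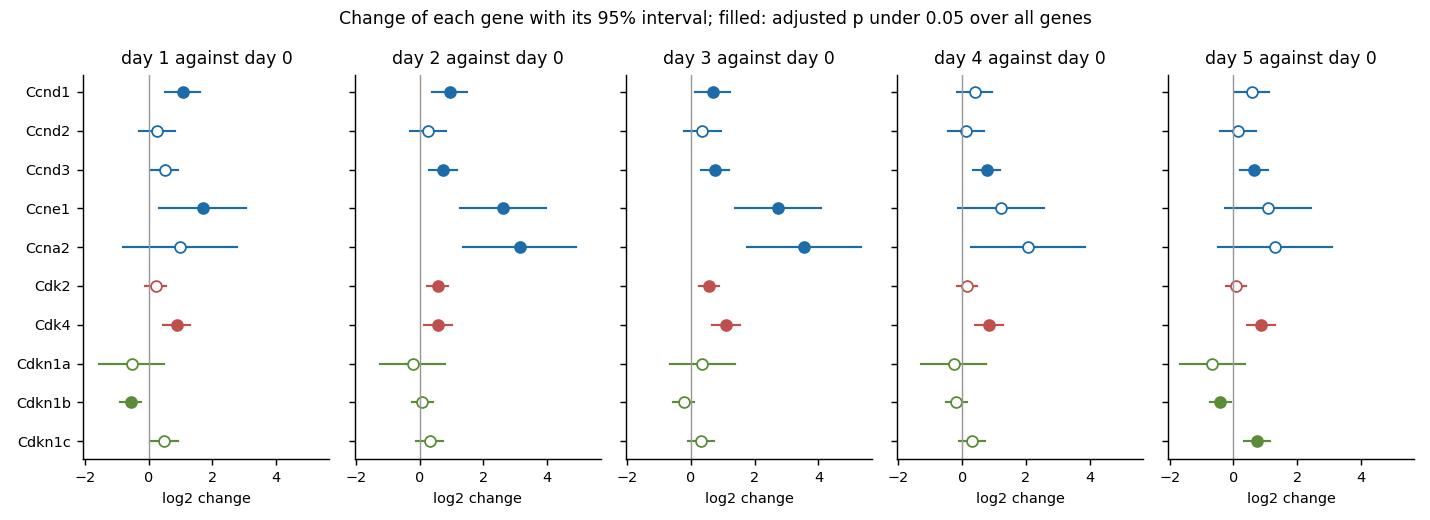
Log2 change (x axis) of each gene (y axis) on days 1 to 5 against day 0, with its 95% interval from limma; filled points passed at an adjusted p of 0.05 over all genes. The intervals of Ccne1 and Ccna2 are the widest and their changes on days 2 and 3 the largest.

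Among the D-type cyclins Ccnd1, which growth factor signals induce, rose on days 1 to 3. Its levels were 4.47, 3.64 and 3.76 on day 0, 5.2, 5.06 and 4.82 on day 1, and 5.27, 4.95 and 4.46 on day 2. They were 5.09, 4.35 and 4.46 on day 3, 4.21, 4.52 and 4.31 on day 4, and 4.5, 4.57 and 4.56 on day 5. The day 1 and day 5 arrays all lie above the controls, whereas on days 2 to 4 at least 1 antibody array falls below the highest control, replicate 2. The change was 1.07 ± 0.25 on day 1 (SE, n = 3 each, a 2.1-fold rise, limma adjusted p = 0.0064), 0.94 ± 0.25 on day 2 (adjusted p = 0.0082) and 0.68 ± 0.25 on day 3 (adjusted p = 0.038). On days 4 and 5 it was 0.39 (95% interval -0.15 to 0.93, adjusted p = 0.2) and 0.59 (0.05 to 1.12, adjusted p = 0.07), which did not pass. Day 1 replicate 1, on the controls' own slide, stood 1.24 above the control mean, and with slide as a fixed block the day 3 change was 1.02 (adjusted p = 0.16). The second probe of Ccnd1, at chr1:205357582-205357641 on the minus strand of rn4, rose by 1.36, 1.13 and 0.88 on days 1 to 3 and by 0.96 on day 5 (adjusted p = 0.0094 over all 27834 probes), the same course as the brighter probe at chr1:205359847-205359906. The day 3 call was lost with quantile normalization (0.34, adjusted p = 0.28), without day 0 replicate 4 (0.52), without day 0 replicate 5 (0.58) or without day 3 replicate 2 (0.45), and without day 0 replicate 2 both day 4 (0.65, adjusted p = 0.04) and day 5 (0.84, adjusted p = 0.014) passed.

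Ccnd2, the D-type cyclin read by the junction probe printed above, showed no change that passed on any day. Its levels ran from -0.39 to 0.53 over the 15 antibody arrays, against -0.33 to 0.13 on day 0, and the groups overlap on every day. The largest difference was 0.35 on day 3, with a 95% interval of -0.22 to 0.93 and an adjusted p of 0.29. A rise of 0.93 log2 units or a fall of 0.46 on some day therefore lies within the intervals, and Ccnd2 cannot be called constant.

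Ccnd3, the third D-type cyclin, was higher on days 2 to 5. Its levels were 0.64, -0.15 and 0.4 on day 0, 0.78, 0.91 and 0.72 on day 1, and 1.1, 1.04 and 0.93 on day 2. They were 1.11, 1.08 and 0.96 on day 3, 0.71, 1.39 and 1.09 on day 4, and 0.83, 0.83 and 1.16 on day 5. Every antibody array stands above the highest control, which held for 27.2% of all genes in one direction or the other and, of the 10 genes, for Ccnd3 and Cdk4. Against day 0 the change was 0.51 ± 0.2 on day 1 (adjusted p = 0.055, not passed), then 0.73, 0.75, 0.77 and 0.65 ± 0.2 on days 2 to 5 (adjusted p = 0.0096, 0.0074, 0.0059 and 0.018). The array holds a single probe of Ccnd3, for which the files give no position. The spread of the controls weighs on this gene: the day 5 call was lost without day 0 replicate 4, the low control (0.42, adjusted p = 0.091), and without day 5 replicate 5 (0.54, adjusted p = 0.073).

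Cyclins E and A, which act after the D-type cyclins, had the largest changes at the brighter probes. Ccne1, the cyclin that first activates Cdk2, had levels of -1.83, -2.74 and -2.48 on day 0, -0.7, -0.79 and -0.47 on day 1, and 0.78, 0.23 and -0.24 on day 2. They were 0.77, 0.35 and 0.04 on day 3, -2.68, -0.35 and -0.35 on day 4, and -2.61, -1.37 and 0.18 on day 5. The arrays of days 1 to 3 all lie above the controls, and those of days 4 and 5 run from within the control range to the level of day 2. Ccne1 rose by 1.7 ± 0.63 on day 1 (3.24-fold, SE, n = 3 each, limma adjusted p = 0.045), by 2.61 on day 2 (6.1-fold, adjusted p = 0.0049) and by 2.74 on day 3 (6.67-fold, adjusted p = 0.0032). The changes of 1.22 on day 4 and 1.08 on day 5 did not pass (adjusted p = 0.12 and 0.17). Single arrays moved both across the threshold: without day 4 replicate 1 the day 4 change was 2 (adjusted p = 0.011), without day 5 replicate 2 the day 5 change was 1.76 (adjusted p = 0.039), and without day 5 replicate 5 it was 0.36. The day 4 change also passed with the array median as the scale (1.64, adjusted p = 0.034) and with quantile normalization (1.59, adjusted p = 0.049). The day 2 call held in all 32 alternative settings and the day 3 call in 32 of 33, the exception being slide as a fixed block (2.84, adjusted p = 0.072). Many of these settings left out an array of a day not compared, which cannot move the change itself.

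The day 1 call of Ccne1 rests on a narrow margin. It passed in 15 of 33 settings, with adjusted p from 0.016 to 0.38, and leaving out any of the 6 arrays compared except day 0 replicate 2 ended it, with values of 1.5 to 1.77. The second probe of Ccne1, at chr1:90570642-90570701 on the minus strand, lies upstream of the brighter one at chr1:90568197-90568256 and was not well above background on any control array. It was well above background on all 3 arrays of day 2 and of day 3. There it read at least 1.88-fold and at least 1.48-fold higher than the controls, with these set at their arrays' detection limit. Without that limit the changes were 3.14 and 2.8 (limma adjusted p = 0.00089 and 0.0011), with control values at background. The probe passed the filter on dim probes only through days 2 and 3, so its rise there is not separate support. It was above background on 2 arrays of day 1, on none of day 4 and on 1 of day 5.

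Ccna2, cyclin A, which acts through S phase and G2, rose on days 2 and 3 at its brighter probe. Its levels were -0.92, -1.61 and -1.63 on day 0, -0.3, -0.36 and -0.53 on day 1, and 2.26, 1.86 and 1.12 on day 2. They were 2.59, 2.41 and 1.48 on day 3, -1.35, 1.69 and 1.66 on day 4, and -1.68, -0.65 and 2.08 on day 5. Days 1 to 3 do not overlap with the controls, every array of days 2 and 3 stands above those of day 1, and on days 4 and 5 the arrays split into high and low ones. Ccna2 rose by 3.14 ± 0.83 on day 2 (8.79-fold, SE, n = 3 each, limma adjusted p = 0.0079) and by 3.55 ± 0.83 on day 3 (11.7-fold, adjusted p = 0.0035). The changes of 0.99 on day 1 (adjusted p = 0.35), 2.06 on day 4 (adjusted p = 0.05, just over the threshold) and 1.3 on day 5 (adjusted p = 0.21) did not pass. Without day 4 replicate 1 the day 4 change was 3.06 (adjusted p = 0.005), and day 4 passed in 10 of 32 settings in all. The day 3 change was 4.03 with slide as a fixed block (adjusted p = 0.057), the only one of 33 settings in which it did not pass.

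The junction probe of Ccna2 printed above gave smaller differences, none of which passed. It lies 2711 bases upstream of the brighter probe, at chr2:123063059-123063118 on rn4, and its levels were -4.05, -1.74 and -4.19 on day 0, -1.16, -1.9 and -2.8 on day 2, and -1.44, -1.51 and -2.51 on day 3. The control replicate 4 stands apart from the other two controls at this probe and overlaps with both antibody days. The changes were 1.37 ± 0.9 on day 2 and 1.5 ± 0.9 on day 3 (adjusted p = 0.22 and 0.18), so the rise of Ccna2 was not called by its second probe. On days 1 and 5 the same probe gave -0.66 and -0.9, which did not pass either. Without day 0 replicate 4 the changes were 2.17 on day 2 and 2.3 on day 3 (adjusted p = 0.093 and 0.069).

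The kinases had smaller changes than cyclins E and A. Cdk4, the partner of the D-type cyclins, was higher on all 5 days. Its levels were 1.48, 1.29 and 1.45 on day 0, 2.3, 2.3 and 2.27 on day 1, and 2.02, 2.05 and 1.87 on day 2. They were 2.77, 2.5 and 2.24 on day 3, 1.82, 2.45 and 2.48 on day 4, and 1.97, 2.2 and 2.62 on day 5. No antibody array reaches down to the controls, whose spread was narrow. The change was 0.88, 0.57, 1.1, 0.84 and 0.86 ± 0.2 on days 1 to 5 (SE, n = 3 each, limma adjusted p = 0.0057, 0.031, 0.00099, 0.0034 and 0.0045), the largest being a 2.14-fold rise on day 3. Day 1 replicate 1 stood 0.89 above the controls of its own slide. The second probe, at chr7:67017293-67017352, lies 831 bases upstream of the junction probe and gave 0.96, 0.8, 1.21, 1.04 and 1.05, all passed. The probes of Cdk4 differed by 0.08 to 0.23 log2 units on any day, and its upstream probe changed more than its downstream one, the opposite of the shift over all genes. The day 2 call passed in 21 of 32 settings. It was lost without day 0 replicate 4 (0.51), day 0 replicate 5 (0.59), day 2 replicate 2 (0.55) or day 2 replicate 3 (0.54). Among other settings, quantile normalization (0.43, adjusted p = 0.098) and the authors' deposited table (0.42, adjusted p = 0.13) lost it too. With slide as a fixed block the day 5 change was 1.26 (adjusted p = 0.11).

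Cdk2, the partner of cyclins E and A, rose at the brighter of its 2 probes and fell at the other, on different days. The brighter probe, at chr7:2000436-2000495 on the minus strand, read 0.21, -0.17 and 0.08 on day 0, 0.66, 0.57 and 0.56 on day 2, and 0.72, 0.62 and 0.48 on day 3. On those days all antibody arrays lie above the controls. It rose by 0.56 ± 0.15 on day 2 and by 0.57 ± 0.15 on day 3 (1.47-fold and 1.48-fold, adjusted p = 0.0083 and 0.0071), and gave 0.22, 0.15 and 0.08 on days 1, 4 and 5, which did not pass. The second probe, 706 bases upstream at chr7:2001142-2001201, ran from -3.92 to -2.8 over the 15 antibody arrays, against -3.13, -1.61 and -2.92 on day 0. It gave -0.7, -0.6, -0.6, -1.01 and -1.24 on days 1 to 5, of which days 4 and 5 passed (adjusted p = 0.016 and 0.0069). Replicate 4 is the high control at this probe, and without it the values were -0.23, -0.12, -0.13, -0.54 and -0.77, of which day 5 passed (adjusted p = 0.026). The mean over both probes was -0.02 on days 2 and 3 and passed as a fall on day 5 (-0.58, adjusted p = 0.021), so the rise of Cdk2 was seen at 1 of its probes. With the reference genes as the scale the brighter probe itself passed as a fall on day 4 (-0.41, adjusted p = 0.023), and with the array median it rose on days 1, 4 and 5 too (0.56, 0.57 and 0.53, adjusted p = 0.02, 0.014 and 0.022).

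Of the 3 inhibitors, 2 have probes that disagree. Cdkn1a, p21, is the inhibitor that p53 induces. Its brighter probe, printed in 10 spots on each array, at chr20:7386596-7386655 on the plus strand, read 2.16, 1.17 and 2.45 on day 0, 1.48, 1.48 and 1.24 on day 1, and 1.74, 1.74 and 1.63 on day 2. It read 1.84, 2.36 and 2.63 on day 3, 1.4, 1.84 and 1.72 on day 4, and 0.54, 0.45 and 2.79 on day 5. The groups overlap on every day, no change passed, and the differences were -0.53, -0.22, 0.35, -0.27 and -0.67 ± 0.48. On day 5 replicate 5 stood far above the other arrays of that day, and without it the change of that day was -1.44 (adjusted p = 0.0067).

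The second probe of Cdkn1a, 1090 bases upstream at chr20:7385506-7385565, gave a different account. It read -1.23, 0.62 and -0.51 on day 0, -4.64, -5.73 and -2.61 on day 1, and -2.38, -3.95 and -3.85 on day 2. It read -4.46, -3.66 and -3.98 on day 3, -5.31, -4.29 and -4.28 on day 4, and -5.55, -5.1 and -3.99 on day 5. All 15 antibody arrays lie below the controls. The change was -3.95, -3.02, -3.66, -4.25 and -4.51 ± 0.69 (SE, adjusted p = 0.0022, 0.0036, 0.0011, 0.00035 and 0.00082 over 27834 probes). Without day 0 replicate 4, the highest control, it was -4.01 to -2.52 and passed on all 5 days (adjusted p from 0.0024 to 0.025). It was well above background on all 3 arrays of days 0, 2 and 3, on 2 of day 4 and on 1 each of days 1 and 5, so the sizes on days 1, 4 and 5 rest in part on values at background. The mean over both probes passed as a fall on all 5 days (-2.24, -1.62, -1.65, -2.26 and -2.59, adjusted p from 0.0012 to 0.011). The difference between the probes, -4.01 to -2.79, is far beyond the median of -0.47 to -0.37 over all genes with distant probes, and these data do not say which of the 2 probes follows the Cdkn1a transcript.

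Cdkn1b, p27, fell at its brighter probe and rose at the other. The brighter one, at chr4:171845435-171845494 on the plus strand, read 2.14, 1.71 and 1.99 on day 0, 1.31, 1.32 and 1.53 on day 1, and 1.47, 1.78 and 1.36 on day 5. Day 1 lies below the controls and day 5 overlaps with them. It fell by 0.56 on day 1 (-0.56 ± 0.16, limma adjusted p = 0.013) and by 0.41 on day 5 (-0.41 ± 0.16, adjusted p = 0.046), and gave 0.08, -0.23 and -0.19 on days 2 to 4. The second probe, 915 bases downstream at chr4:171846350-171846409 and printed in 10 spots on each array, read 0.92, -0.16 and 0.34 on day 0, 1.25, 1.51 and 1.61 on day 3, and 1.25, 1.53 and 1.15 on day 5. It gave 0.43, 0.75, 1.09, 0.68 and 0.94 ± 0.29 on days 1 to 5, of which days 2, 3 and 5 passed (adjusted p = 0.049, 0.0075 and 0.018). Without day 0 replicate 4, the low control at this probe, day 3 alone passed (0.83, adjusted p = 0.044), beside 0.49 on day 2 and 0.68 on day 5. The day 1 fall passed in 24 of 33 settings. Among the 9 that lost it were the mean over both probes (-0.06, adjusted p = 0.81), the array median as the scale (-0.22, adjusted p = 0.3), the replicate block (-0.51, adjusted p = 0.068), and the fits without day 1 replicate 1 (-0.52, adjusted p = 0.051) or replicate 4 (-0.53, adjusted p = 0.053). The day 5 fall passed in 11 of 33 settings. The scale decides the rest: the brighter probe fell on days 3 and 4 as well with the reference genes (-0.61 and -0.74) or quantile normalization (-0.44 and -0.46), while with the array median its day 5 value was 0.03.

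Cdkn1c, p57, was higher on day 5. Its brightest probe, which the files place over 26 bases at chr1:203835188-203835213 on the minus strand, read 6.61, 6.07 and 6.28 on day 0, 6.73, 6.72 and 7.02 on day 1, and 7.32, 7.19 and 6.69 on day 5, and over days 2 to 4 it ran from 6.44 to 6.97. The arrays of days 1 and 5 lie above the controls. On day 5 replicates 2 and 4 read highest and replicate 5 lowest, the array of that day with the most Ccne1 and Ccna2. The change was 0.74 ± 0.2 on day 5 (1.68-fold, adjusted p = 0.0082) and 0.5 ± 0.2 on day 1 (adjusted p = 0.053, not passed), and 0.31, 0.32 and 0.31 on days 2 to 4. All 4 probes of Cdkn1c passed on day 5, with 0.74, 0.68, 0.75 and 1.35. The probe farthest upstream, at chr1:203836692-203836751, gave the last of these and also passed on days 1, 3 and 4 (0.96, 0.81 and 0.72). The F-test over the 6 days did not pass (adjusted p = 0.066), and with quantile normalization or the reference genes the day 5 change was 0.29 or 0.37 and did not pass. Of 11 podocyte markers, whose cells are known for p57, 1 rose and 3 fell on day 5, where 20.9% of all genes rose and 23.4% fell.

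**Figure D3:**
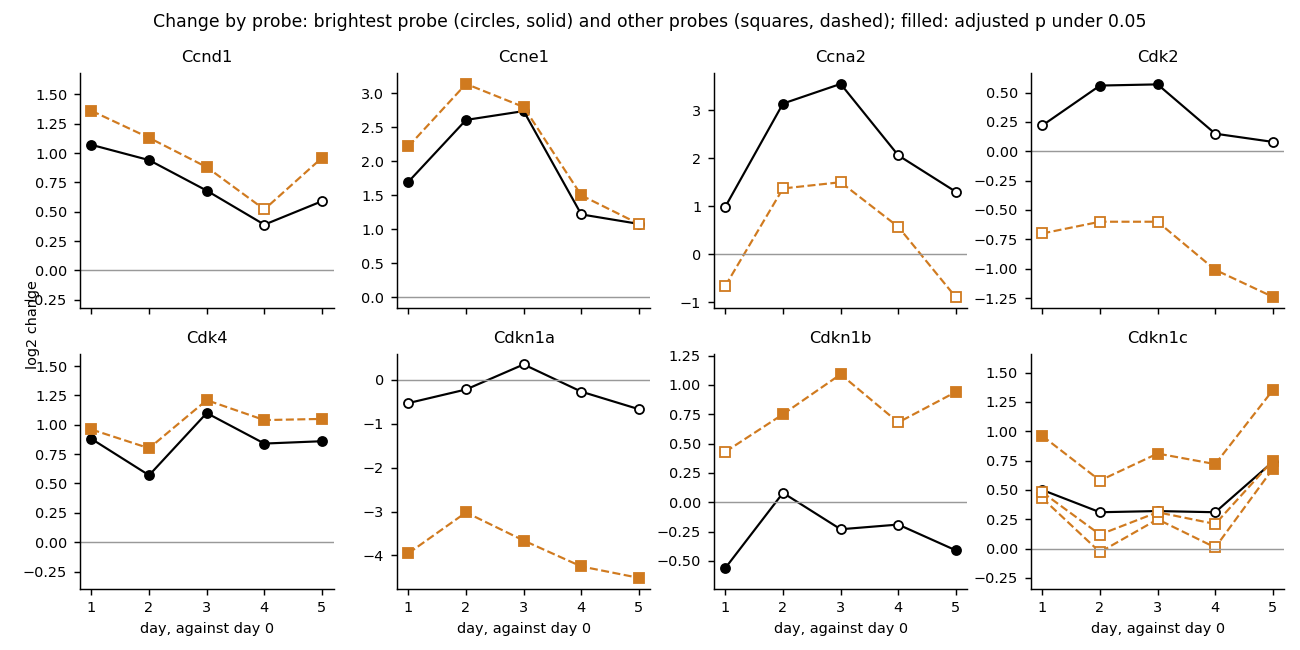
Log2 change (y axis, scaled for each panel) on days 1 to 5 against day 0 (x axis) for each probe of the 8 genes with more than 1: circles and solid lines for the brightest probe, squares and dashed lines for the others, filled where the adjusted p was under 0.05. Ccnd1, Ccne1, Cdk4 and Cdkn1c give like courses, Ccna2 smaller differences at its second probe, and Cdk2, Cdkn1a and Cdkn1b readings that part by up to 4.01 log2 units. The control arrays of the second Ccne1 probe were not well above background, and that probe passed the filter only through days 2 and 3.

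The antibody days were compared with one another as well. None of the 10 genes passed in any of these 10 comparisons by limma. Across the 2 scan days, the share of all genes that passed was 0.388% for day 2 against day 1, 0.323% for day 3 against day 2, 2.99% for day 4 against day 3, 2.77% for day 5 against day 4, 1.73% for day 4 against day 1 and 3.62% for day 5 against day 2. The 4 comparisons within a scan day gave 0.00431% for day 3 against day 1, 0.121% for day 5 against day 1, 0.00863% for day 5 against day 3 and 0.0992% for day 4 against day 2. At an unadjusted p under 0.05, 3 genes passed for day 3 against day 1 (Ccna2, Cdk2 and Cdkn1b), 5 for day 5 against day 3 (Ccna2, Ccne1, Cdk2, Cdkn1a and Cdkn1c), 3 for day 4 against day 2 (Ccnd1, Ccne1 and Cdk2) and 0 for day 5 against day 1. Over all genes 13.7%, 13.2%, 13.9% and 8.92% did so in the same comparisons. The order of the days is given by their means. Ccnd1 stood highest on day 1 (5.03 ± 0.19, SD), followed by day 2 (4.89 ± 0.41), day 3 (4.63 ± 0.4), day 5 (4.54 ± 0.04), day 4 (4.35 ± 0.16) and day 0 (3.96 ± 0.45). Ccne1 and Ccna2 both stood highest on day 3 (0.39 ± 0.37 and 2.16 ± 0.6), with day 2 next (0.26 ± 0.51 and 1.75 ± 0.58). Cdk4 stood highest on day 3 (2.5 ± 0.27), Cdk2 on days 2 and 3 (0.6 ± 0.05 and 0.6 ± 0.12), Ccnd2 on day 3 (0.2 ± 0.23) and Ccnd3 on day 4 (1.06 ± 0.34). Of the inhibitors Cdkn1a stood highest on day 3 (2.28 ± 0.41) and lowest on day 5 (1.26 ± 1.33), Cdkn1b highest on day 2 (2.03 ± 0.19) and lowest on day 1 (1.39 ± 0.12), and Cdkn1c highest on day 5 (7.07 ± 0.34) and lowest on day 0 (6.32 ± 0.28). For each of the 10 genes no neighbours in its order of days differed at the threshold, apart from day 2 and day 0 of Cdk4.

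The spread of days 4 and 5 followed single arrays and was shared by both late cyclins and other genes of the set. Day 4 replicate 1 was also the lowest array of its day for Ccnd1, Ccnd2, Ccnd3, Cdk2, Cdk4 and Cdkn1a, and the highest for Cdkn1c. Day 5 replicate 5 was the highest of its day for Ccnd2, Ccnd3, Cdk2, Cdk4 and Cdkn1a, and the lowest for Cdkn1b and Cdkn1c. Day 4 replicate 1 read -1.35 for Ccna2 and -2.68 for Ccne1, both within the control range, while replicates 2 and 3 read 1.69 and 1.66 for Ccna2 and -0.35 each for Ccne1. On day 5 replicate 2 was low, replicate 5 high and replicate 4 between them for both genes. Of 5 markers of proliferating cells (Mki67, Top2a, Birc5, Ccnb1 and Cdk1) 0, 5, 5, 3 and 0 rose on days 1 to 5, where 19.2%, 20.8%, 21.7%, 25.6% and 20.9% of all genes rose. These markers were low and high on the same arrays as both cyclins. Their mean level was -0.49, 2 and 2.01 on day 4, and -1.18, 0.16 and 2.22 on day 5. Macrophage markers also moved, at 0.14, 1.97 and 1.86 on day 4 and 0.69, 0.42 and 2.74 on day 5, beside -0.13 to 0.75 on the control arrays. Mesangial markers stood at 0.16, 1.07 and 0.77 on day 4 and at 0.56, 0.5 and 1.27 on day 5, beside 0.51 to 0.88 in controls. Proximal tubule markers were highest on the arrays low in both cyclins, at 5.69, 4.87 and 5.3 on day 4 and 5.61, 5.32 and 4.48 on day 5, beside 4.87 to 5.25 in controls. T cell markers stood at -2.42, -1.31 and -1.1 on day 4 and -1.2, -1.6 and -0.52 on day 5, beside -2.88 to -1.58 in controls. The part of any of these cells in the levels of Ccne1 and Ccna2 was not tested. The 3 arrays of day 5 lay on 1 slide, and day 4 replicate 1 lay on the slide of the day 2 arrays, which read 1.12 to 2.26 for Ccna2. The part of slide or hybridisation in this spread was not tested. Without day 5 replicate 5, Ccna2 and Ccne1 were lower on day 5 than on day 3 by a change of -3.33 and -2.38 (adjusted p = 0.023 and 0.04), against -2.25 and -1.66 with all arrays (adjusted p = 0.27 and 0.28).

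**Figure D4:**
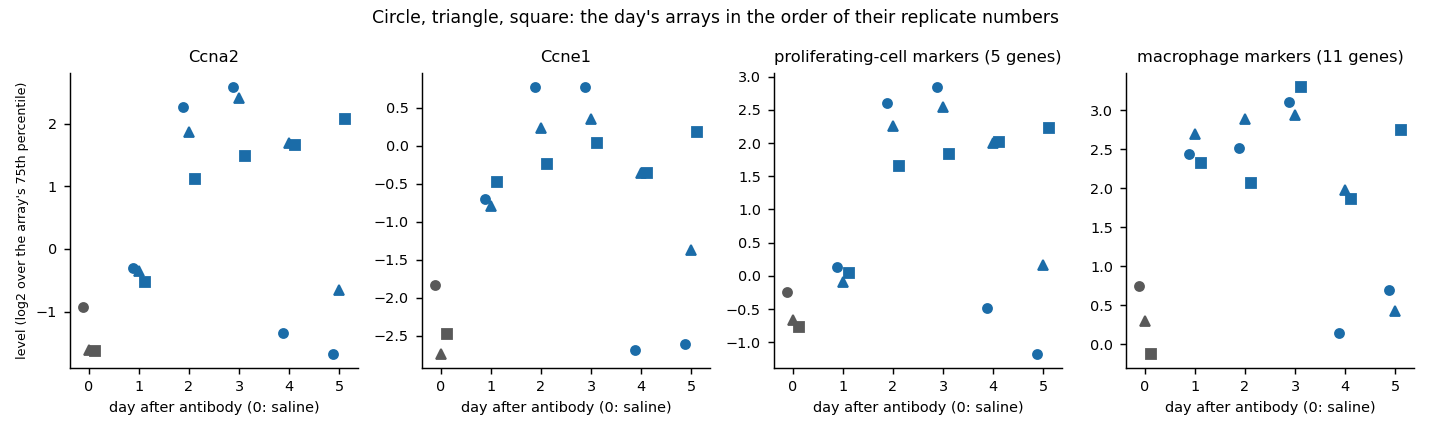
Level (log2 over the array's 75th percentile, y axis) of Ccna2, of Ccne1 and the mean level of 5 proliferating-cell and 11 macrophage markers on each array by day (x axis); symbols keep the order of replicate numbers within a day. Day 4 replicate 1 (circle) and day 5 replicate 2 (circle) are low in the first 3 panels, and day 5 replicate 5 (square) is high in all of them.

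Genes that E2F factors switch on for DNA replication rose more often than they failed the test. The list of S-phase genes under E2F control, such as the helicase subunits of the Mcm family, Pcna and the nucleotide enzymes Tk1 and Tyms, has 17 measured members. Of these 12, 14, 17, 11 and 10 rose on days 1 to 5 and none fell, where 19.2%, 20.8%, 21.7%, 25.6% and 20.9% of all genes rose. The median change was 1.45, 1.89, 2.03, 1.25 and 1.27, and 1.45, 1.76, 1.93, 1.09 and 0.87 with the 2 genes that were not above background in controls, Gins2 and Mcm5, set at their lower bounds. Mcm3, a subunit of the replicative helicase, rose by 2.94 ± 0.52 on day 3 (7.67-fold, adjusted p = 0.00083) and by 1.79 on day 5 (adjusted p = 0.013). Rfc4, a subunit of the clamp loader, rose by 2.28 ± 0.44 on day 3 and by 1.55 on day 5 (adjusted p = 0.0013 and 0.012). Orc1, of the origin recognition complex, rose by 3.75 ± 0.64 on day 3 (adjusted p = 0.00072) and was well above background on 1 of 3 control arrays. Gins2, of the helicase complex, was at least 2.65-fold higher on day 3 (adjusted p = 0.0017).

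Other regulators of the G1/S step rose more often than they fell. Of 28 measured, 9, 14, 15, 12 and 7 rose on days 1 to 5, where 19.2%, 20.8%, 21.7%, 25.6% and 20.9% of all genes rose. On the same days 2, 3, 3, 3 and 4 fell, where 20.7%, 25.1%, 26%, 26.7% and 23.4% of all genes fell. Tfdp1, the partner that E2F factors need to bind DNA, rose on all 5 days, by 0.95, 1.34, 1.5, 1.37 and 0.91 ± 0.23. Ccnh and Mnat1, subunits of the kinase that activates the cyclin-dependent kinases, rose by 0.84, 0.7, 0.89, 1.22 and 1.08 ± 0.22 and by 0.61, 0.57, 0.73, 0.96 and 0.73 ± 0.19. E2f3, one of the activating E2F factors, was lower on all 5 days, with changes of -0.79, -0.58, -0.82, -1.08 and -1.07 ± 0.18. These 4 genes passed on every day (adjusted p from 0.00042 to 0.026). The other genes that fell were Cdk6, the second kinase of the D-type cyclins, on days 2, 3 and 5 (-0.72, -0.77 and -0.89 ± 0.26), and E2f4, an E2F factor of resting cells, on days 2, 4 and 5 (-0.87, -1.14 and -0.8 ± 0.25). E2f7, a repressing E2F factor, passed the filter only through day 0, which favours a fall, and its controls ran from -4.22 to -2.21. It fell by 2.26 on day 1 (adjusted p = 0.023), where 1 of 3 arrays was well above background. It lay near background on all arrays of days 3 to 5, well above it on none, and was at least 2.46-fold, 2.68-fold and 2.97-fold lower there (adjusted p = 0.009, 0.00091 and 0.0026). These p-values rest in part on values at background.

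**Figure D5:**
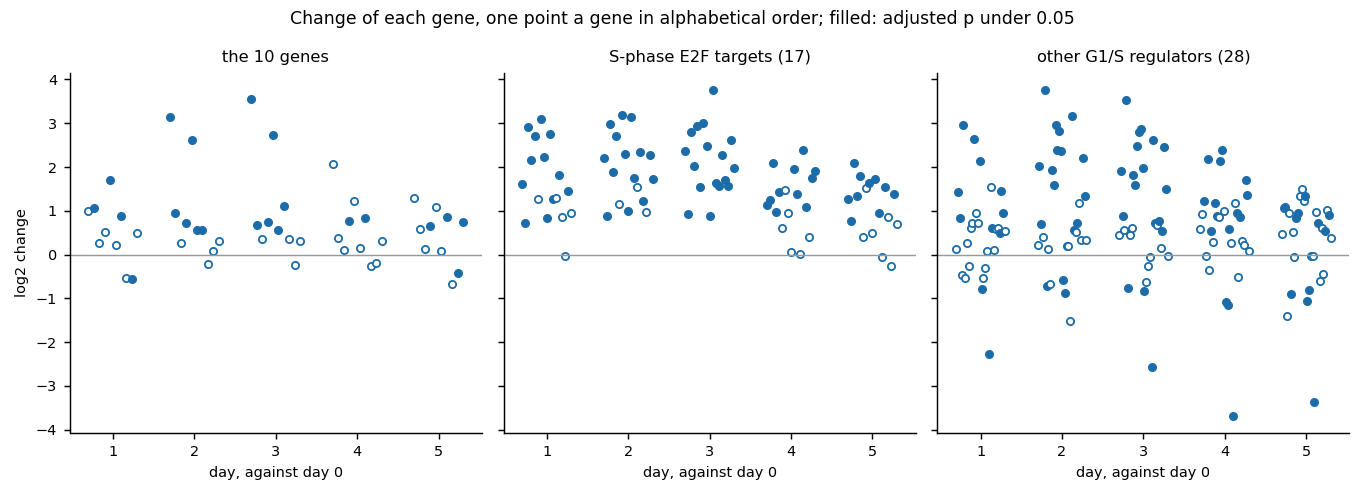
Log2 change (y axis) on days 1 to 5 against day 0 (x axis) of the 10 genes, of 17 S-phase genes under E2F control and of 28 other G1/S regulators, 1 point a gene, filled where the adjusted p was under 0.05. All filled points of the S-phase genes lie above 0 on every day, while both other panels hold filled points on both sides of 0.

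Other targets of p53, which induces Cdkn1a, and growth signals upstream of the D-type cyclins were also looked at. Of 11 p53 target genes other than Cdkn1a, 2, 2, 4, 3 and 3 rose on days 1 to 5, where 19.2%, 20.8%, 21.7%, 25.6% and 20.9% of all genes rose, and 1 fell on day 1. These counts lie near that share except on day 3. Ccng1, a p53-induced cyclin, rose on every day, by 1.23, 0.99, 1.17, 1.53 and 1.35 ± 0.2 (adjusted p = 0.002, 0.0021, 0.00078, 0.00019 and 0.00082). Bbc3, a p53-induced promoter of apoptosis, rose by 1.06 on day 1, 0.87 on day 3 and 0.71 on day 5 (adjusted p = 0.008, 0.014 and 0.039), and Fas, a death receptor, by 1.56 on day 3 and 1.19 on day 4 (adjusted p = 0.0069 and 0.025). Zmat3 rose by 0.45 on day 4 and 0.54 on day 5 (adjusted p = 0.049 and 0.025), Btg2 by 1.1 on day 2 (adjusted p = 0.035) and Phlda3 by 1.25 on day 3 (adjusted p = 0.048). The gene that fell on day 1 was Gadd45a, a stress response gene (-0.9 ± 0.27, adjusted p = 0.019). Of 9 growth factor and immediate early genes 2, 3, 2, 2 and 1 rose and 3, 0, 1, 2 and 1 fell, where 20.7%, 25.1%, 26%, 26.7% and 23.4% of all genes fell. No more than 3 of the 9 passed in 1 direction on any day. Fosl1, an immediate early transcription factor, was not above background in controls and was at least 7.72-fold higher on day 3 (adjusted p = 0.00054). Pdgfa, a mesangial growth factor, rose by 0.96, 1.03, 1.16 and 1.12 ± 0.22 on days 1, 3, 4 and 5, and Pdgfb, the ligand of the mesangial PDGF receptor, fell by 0.92, 1.02 and 1.25 on days 3 to 5 (changes of -0.92, -1.02 and -1.25, adjusted p = 0.043, 0.025 and 0.011). Hbegf, a ligand of the EGF receptor, was lower on days 1 and 4 (-0.59 and -0.94, adjusted p = 0.043 and 0.0027). The immediate early genes Fos and Egr1 rose on day 2 (3.46 and 1.7, adjusted p = 0.0055 and 0.026). Pdgfrb, the PDGF receptor that also stands among the mesangial markers, fell on day 1 (-1.75, adjusted p = 0.0052), as did Fgf2, which was at least 1.08-fold lower (adjusted p = 0.024).

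The genes with the most similar course over the 18 arrays were found by Pearson's r among named genes, as a description only, since all points share the same arrays and scaling. Ccna2 was followed most closely by Ttk (r = 0.996), Cdk1 (0.994) and Ckap2 (0.993), all genes of mitosis, and Ccne1 by Kntc1 (0.987) and Cdc45 (0.986). Cdk4 ran close to Dynlt1 (0.969) and Cnih4 (0.963), and Ccnd3 closest to the ribosomal protein gene Rpl5 (0.961), Tex30 (0.957) and Rbmxl1 (0.955). Cdk2 ran closest to Tf (0.899), Foxm1 (0.898) and Pxdn (0.896), and Ccnd1 to Ltb (0.881), Apbb1ip (0.877) and Unc119 (0.867). Cdkn1c ran closest to Arel1 (0.889), Secisbp2 (0.878) and Golga3 (0.877). Values were lower for Ccnd2 (Pcdh17, 0.852, Sdc3 and Stk10, 0.832), Cdkn1b (Zfp800, 0.85, Camsap2, 0.834, Ccdc50, 0.791) and Cdkn1a (Slc28a2, 0.834, Rgcc, 0.794, Micall2, 0.787). Among the 10 genes the pair with the highest value was Ccne1 and Ccna2 (0.93), followed by Ccne1 and Cdk2 (0.87), and the lowest was Cdkn1a and Cdkn1c (-0.52).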

How the data were processed

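Total RNA of rat glomeruli, labelled with Cy3, was measured on 18 single-colour Agilent arrays. The intensities are the processed signals of Agilent Feature Extraction 10.7.3.1, which had subtracted background and corrected spots before deposition, per the file headers, and probe positions are on rn4, per the same headers. The authors' deposited table of log2 values, made by steps that no source used here records and with a centring that stays unknown, served as an alternative within the sets of days whose values share their quantiles (days 0, 2 and 4, and days 1, 3 and 5).

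Here control spots and outlier flags were left out, spots of a probe averaged, and log2 of the processed signal taken minus the 75th percentile of its array. Probes well above background on all 3 arrays of at least 1 day were kept (27834 of 41012), with 57 missing values in all, and the brightest probe stood for a gene. Genes were named through RefSeq by target accession (18028 probes), another accession (479), symbol (2902) or older symbol (386), and 19217 probes kept their own name, which gave 23186 genes and transcripts, 12280 with a current symbol. Linear models with eBayes moderation (limma 3.58.1, R 4.3.3; the package data.table was at version 1.17.8) were fitted to all 18 arrays with 6 groups, and p-values were adjusted within each comparison by Benjamini-Hochberg over all genes, or over all probes for comparisons of probes. Groups came from the agent and time labels. The precision is limited by 3 arrays a group. For probes at background on all arrays of a group compared, a fold is a lower bound, with that group set at each array's detection limit. The adjusted p beside such a fold belongs to the change computed without that limit. Such a probe passed the filter through other days, which favours a difference from that group.

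The 10 genes, the pathway lists and the marker lists were chosen with earlier results of these data known. The genes named from each list are the 4 with most days passed, ranked within that by mean size of change, and those a count of 5 or fewer refers to, and the genes of like course are the 3 with the highest r, of which some are not reported here. Alternatives were other scalings (array median, quantile, reference genes), other background correction, filters and probe rules, slide as a block, replicate number as a block, only the 6 arrays compared, and each array left out in turn. A further 3 were chosen after seeing the data. Leaving out an array of a day not compared moves only the spread and the adjusted p, not the change, so counts of settings overstate how far a call was tried. Replicate numbers did not pair the arrays: over 27 same-numbered pairs the correlation of deviations from the day's mean ran from -0.38 to 0.28 (median -0.02), and 0 of 18 arrays correlated best with their own number. The fit was tested on simulated data with known changes.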

Additional observations from a re-analysis of the deposited data

How the results depend on the processing

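Of 10 genes, 4, 6, 6, 2 and 4 passed against day 0 on days 1 to 5. Plain normexp gave 0, 2, 2, 0 and 0, with 1 gene by the F-test and 29, 1485, 1544, 2604 and 56 of all genes, but failed on day 1 replicate 1 and day 5 replicate 5, where 8 and 4 spots had a local background far above their mean. Without those spots in its fit (chosen after seeing the data) the only such move was day 4, at 4. The array median gave 7 on day 4 and quantile normalization 5. The reference genes gave 2, 2 and 1 on days 1, 2 and 5, with 9586, 10381 and 9913 of all genes. On day 4 they lost both rises, Ccnd3 (0.21, adjusted p = 0.33) and Cdk4 (0.28, adjusted p = 0.23). In their place Cdk2 and Cdkn1b passed as falls (-0.41 and -0.74, adjusted p = 0.023 and 0.0017). Day 2 gave 3 with the authors' deposited values. Slide as a fixed block gave 2, 1 and 0 on days 1, 3 and 5, with 4105, 2913 and 103 of all genes. With only the 6 arrays compared, days 4 and 5 gave 1 each, day 3 against day 1 gave 1 (Ccna2, 2.56, adjusted p = 0.027), and 3306 and 4813 of all genes passed on days 1 and 5, against 9265 and 10263. The replicate block gave 7817 of all genes on day 4, against 12119, and 3 genes by the F-test, against 7. Without both day 0 replicate 4 and day 1 replicate 4 (chosen after seeing the data) days 1 and 2 and the F-test gave 0, 3 and 3, and 1103, 6885 and 6272 of all genes passed on days 1, 2 and 5. Leaving out 1 array gave 2 to 6, 5 to 6, 5 to 6, 2 to 4 and 3 to 4 genes on days 1 to 5, 3 to 9 by the F-test, 0 to 0 for day 3 against day 1, day 5 against day 1 and day 4 against day 2, and 0 to 3 for day 5 against day 3. Of all genes it gave 4617 to 9643, 7137 to 10889, 8374 to 11227, 9318 to 12464 and 6515 to 10565. The cause of these moves was not tested, beyond the fewer arrays in the fits that leave arrays out.

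Of the values of single genes under alternatives, 1711 kept direction and side of the threshold, 116 lost the call, 59 gained it and 47 reversed, none of them a rise of Ccne1, Ccna2, Cdk4 or Ccnd3. Among those kept are fits that left out an array of a day not compared, where the direction could not change. The mean over probes turned Cdk2 to -0.24, -0.02, -0.02, -0.43 and -0.58 on days 1 to 5 (day 5 passed as a fall), Cdkn1a to -1.65 on day 3 (a fall that passed, as on its other days), and Cdkn1b to 0.43, 0.24 and 0.27 on days 3 to 5. The reference genes turned Ccnd2 to -0.15, -0.09, -0.03, -0.45 and -0.23 on days 1 to 5, Cdk2 to -0.2, -0.41 and -0.29 on days 1, 4 and 5 (day 4 passed as a fall), Cdkn1c to -0.04, -0.07 and -0.24 on days 2 to 4, Cdkn1b to -0.27 on day 2, Cdkn1a to -0.04 on day 3 and Ccnd1 to -0.16 on day 4. Quantile normalization turned Cdkn1c to -0.03, -0.06 and -0.22 on days 2 to 4, Cdkn1b to -0.12 on day 2 and Ccnd1 to -0.04 on day 4. The array median turned Cdkn1a to 0.16 and 0.15 on days 2 and 4, and Cdkn1b to 0.18, 0.23 and 0.03 on days 3 to 5. The authors' deposited table turned Cdkn1b to -0.11 and Cdkn1c to -0.03 on day 2, and Cdkn1c to -0.23 and Ccnd1 to -0.04 on day 4. The replicate block turned Cdkn1a to 0.06 on day 2 and Ccnd2 to -0.06 on day 4. Without day 0 replicate 4, alone or with day 1 replicate 4, Cdkn1b was -0.03 on day 2, Cdkn1a -0.03 on day 3 and Cdk2 -0.02 on day 5. Cdkn1a was 0.04 on day 2 without day 0 replicate 5, and Cdkn1b -0.01 on day 2 without day 2 replicate 2. Without day 0 replicate 4 (chosen after seeing the data) the second probe of Ccna2 was 0.14 on day 1, against -0.66. With 1 array left out these values ran from -0.03 to 0.18 for Cdkn1b on day 2, -0.6 to 0.04 for Cdkn1a on day 2, -0.03 to 0.61 for Cdkn1a on day 3 and -0.02 to 0.17 for Cdk2 on day 5. The share of higher among called genes, 45.3% to 48.9%, was 53.1% to 55.9% with quantile normalization, 70.5% to 76.5% with the array median and 12.9% to 20.8% with the reference genes. Weak probes limit precision: the dimmer probes of Ccne1, Ccna2 and Cdkn1a were not well above background on every array.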
